A study of Mus musculus with 7 samples.

Results

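Genes of arginine and polyamine metabolism were followed across 7 mouse hearts: Arg1, Arg2, Odc1, Amd1, Srm, Sms, Sat1, Nos2, Nos3 and Ass1. The list holds 10 genes, and probes were assigned to them through the RefSeq transcript named for each probe in the scanner files. Of the 10 genes, 9 had a probe, 16 probes in all among 55681 on the array, and no probe's transcript mapped to Amd1. After a filter that kept probes well above background on at least 3 hearts of a group, 15 probes of 8 genes remained, among 13696 named genes and 22343 features tested; the probe of Arg2 did not pass. The genes were selected on the processed signal of knockout against control hearts, the same comparison that is described, so their differences between groups carry no test.

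The hearts came from male C57BL/6 mice homozygous for a floxed p38α gene, in which loxP sites surround exons 2 and 3. The 4 controls carried the floxed alleles alone. The 3 knockout (KO) animals also carried 1 copy of the α-MHC mercremer transgene, a tamoxifen-inducible Cre that is active in cardiomyocytes, so other cell types of the KO hearts keep the gene and Cre cannot be told apart from the deletion. From 6 weeks of age every animal, control or KO, was given hydroxytamoxifen (500 µg daily for 10 days), and at 3 months the apex was taken after 48 hours of angiotensin II at 1.5 mg/kg/d, delivered by osmotic pump. There was no group without angiotensin II. RNA from each heart, 100 ng, was hybridised to a 1-colour Agilent array, and all arrays lay on 1 slide, where row 1 held 2 controls and 1 KO heart and row 2 held 2 controls and 2 KO hearts. Between 46.0% and 49.7% of probes were well above background per array. All 7 cardiomyocyte markers (Myh6, Tnnt2, Tnni3, Actc1, Ryr2, Myl2 and Pln) were well above background on every array, as the tissue label implies. Levels are log2 signals relative to the 75th percentile of the same array. A difference is the KO mean less the control mean, given with its standard error (SE) from a limma fit, and the number of arrays limits its precision.

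Arginine stands at a branch point. Arginases split it into urea and ornithine, while nitric oxide synthases turn it into nitric oxide and citrulline, which argininosuccinate synthase and lyase can rebuild into arginine. Ornithine decarboxylase makes the first polyamine, putrescine, from ornithine; spermidine and spermine synthases then add aminopropyl groups supplied by S-adenosylmethionine decarboxylase, and spermidine/spermine acetyltransferase marks polyamines for breakdown or export. In the heart arginase is best known from infiltrating and resident macrophages and from vascular cells, and endothelial nitric oxide synthase from the endothelium.

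Arg1, the cytosolic arginase, had the widest range of the list. Its processed signal was 100.2, 365, 5.49 and 7.06 in controls 1 to 4, and 3242, 2449 and 1180 in KO hearts 1 to 3. Controls 3 and 4 were not well above background, controls 1 and 2 were, and all 3 KO hearts lay above all 4 controls. The log2 levels were -1.99, -0.37, -5.96 and -5.79 in controls and 2.91, 2.53 and 1.57 in KO hearts, means of -3.53 ± 2.79 (SD, n = 4) and 2.34 ± 0.69 (SD, n = 3). Arg1 passed the filter only through the KO hearts, being well above background on 2 control arrays. The difference ranked 2 from the top among 13696 named genes, and nothing is read from this rank, since the comparison chose the gene. It was 5.86 ± 1.34 (SE), or 58.2-fold, and its size rests on control values near background. With normexp background correction, which compresses dim signals, it was 13.8-fold, and it ran from 33.2-fold without control 3 and 34.5-fold without control 4 to 83.1-fold without control 1 and 121-fold without control 2.

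The controls differed among themselves in Arg1 by their place on the slide. Controls 1 and 2, in row 1, averaged -1.18, and controls 3 and 4, in row 2, averaged -5.87. Within row 1 the KO heart exceeded the controls by 4.08 on the log2 scale (17.0-fold), and within row 2, where neither control was well above background, the KO hearts were at least 62.9-fold higher. The direction was the same in both rows, and the size in row 2 has only this lower bound. With slide row as a block in the fit the difference was 6.39. Whether the rows differ through handling or through the animals placed in them cannot be told apart.

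Arg2, the mitochondrial arginase, gave little signal in these hearts. Its processed signal was between 5.45 and 7.02 in the 4 controls, and 6.05, 29.1 and 11.5 in KO hearts 1 to 3. It was well above background only in KO 2, so no fold is given.

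**Figure D1:**
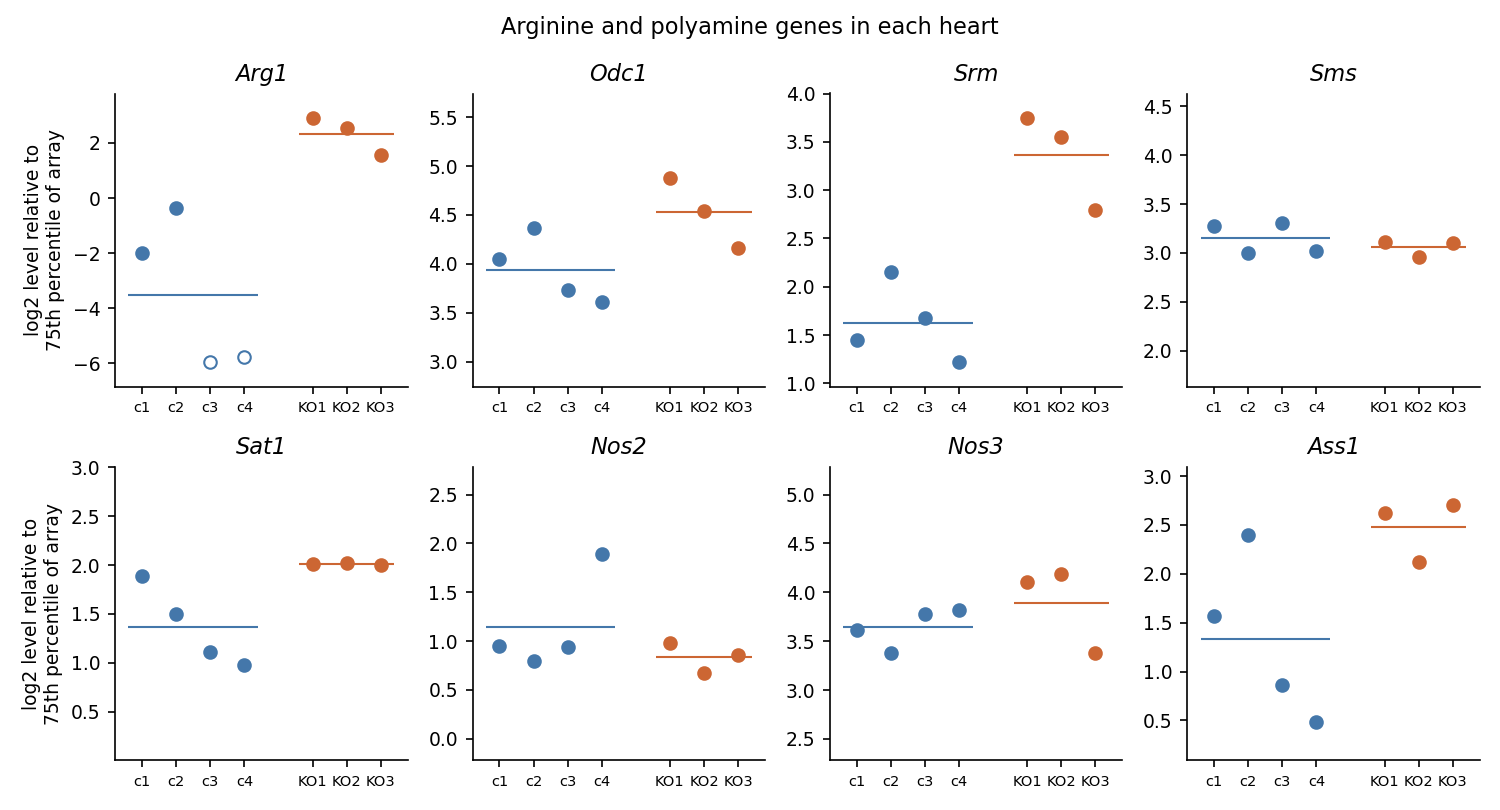
Log2 level relative to the 75th percentile of the array (y axis, ranges differ between panels) of the 8 measured genes in each heart, controls 1 to 4 (c1 to c4, blue) and KO 1 to 3 (orange). Lines are group means and open circles mark hearts not well above background; the 3 KO hearts lie above all 4 controls for Arg1, Srm and Sat1, and the groups overlap for the other 5 genes.

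Cell types that can carry arginase were followed by marker lists. Their counts stand beside all features, of which 25.2% passed in the limma fit, 10.2% higher and 15% lower. The lists were chosen with earlier results of these data known, so nothing is read from these counts. Of 6 genes tied to alternatively activated macrophages 2 rose and 0 fell, Chil3 by 5.05 and Mrc1 by 1.06. Retnla stood at -1.41, and Ccl24, Cd163 and Clec10a at 1.46, 0.63 and 0.51, and none of them passed. The summed signal of the 6 ran from 7.77 to 14.2 in controls and from 29.4 to 74.9 in KO hearts, with no overlap. These sums are in multiples of the array's 75th percentile. Controls 1 and 2 (12.2 and 14.2) lay above controls 3 and 4 (8.25 and 7.77), as they did for Arg1. Chil3 alone made up 27.5, 60.8 and 8.65 of the sums in KO hearts 1 to 3, and without it the sums ran from 7.65 to 11.4 in controls and from 14.1 to 20.7 in KO hearts. Of 9 general monocyte and macrophage markers 4 rose (Cd14, Msr1, Mrc1 and Fcgr1) and 0 fell. Itgam, the brightest of the 9 in controls, went the other way, at -0.56, and did not pass. The summed signal of the 9, 109 to 119 in controls and 114 to 157 in KO hearts, overlapped, and Adgre1 and Csf1r, at 0.24 and 0.23, did not pass. Cd68, at 1.26 with every KO heart above every control, and Lyz2, at 0.53, did not pass either. A sum weighs the brightest genes most. The mean log2 level of the 9 did not overlap, at 1.68 to 2.63 in controls and 2.79 to 3.34 in KO hearts. Among neutrophil markers, 3 were well above background on at least 3 hearts of both groups. Of these S100a8 and S100a9 rose, by 3.33 and 3.14, and Csf3r, the brightest, stood at -0.23. Fpr1, Cxcr2 and Mmp9 passed the filter on dim probes only through the KO hearts, since they were well above background on 2, 0 and 0 control arrays, and their calls are given no weight. The summed signal of the 6 measured markers overlapped, at 114 to 177 in controls and 102 to 177 in KO hearts. Their mean log2 level did not, at -1.93 to -0.97 and 0.12 to 1.76, but it includes the 3 kept through the KO hearts only. In RNA from whole tissue, more cells of a type and more RNA per cell cannot be told apart, and the part of these cells in the Arg1 difference was not tested.

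Arg1 is also a liver enzyme of the urea cycle, and hepatocyte markers were followed for that reason. Of the 3 well above background on at least 3 hearts of both groups, Serpina1a fell by 3.77, and Ahsg and Trf, at -1.32 and -0.46, did not pass. Alb, Fgb, Fabp1 and Ttr passed the filter only through the controls, and the first 3 of them were not so on a single KO array. Apoa1 was well above background on no array. The summed signals of the 7 measured markers overlapped, at 14.9 to 26.6 in controls and 10.8 to 18.7 in KO hearts. Their mean log2 level did not, at -1.24 to 0.35 and -3.26 to -2.85, but it includes the genes kept through the controls only. Of the liver urea cycle genes, Cps1 was well above background on 2 control arrays and 0 KO arrays, and neither probe of Otc was above it on any array.

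**Figure D2:**
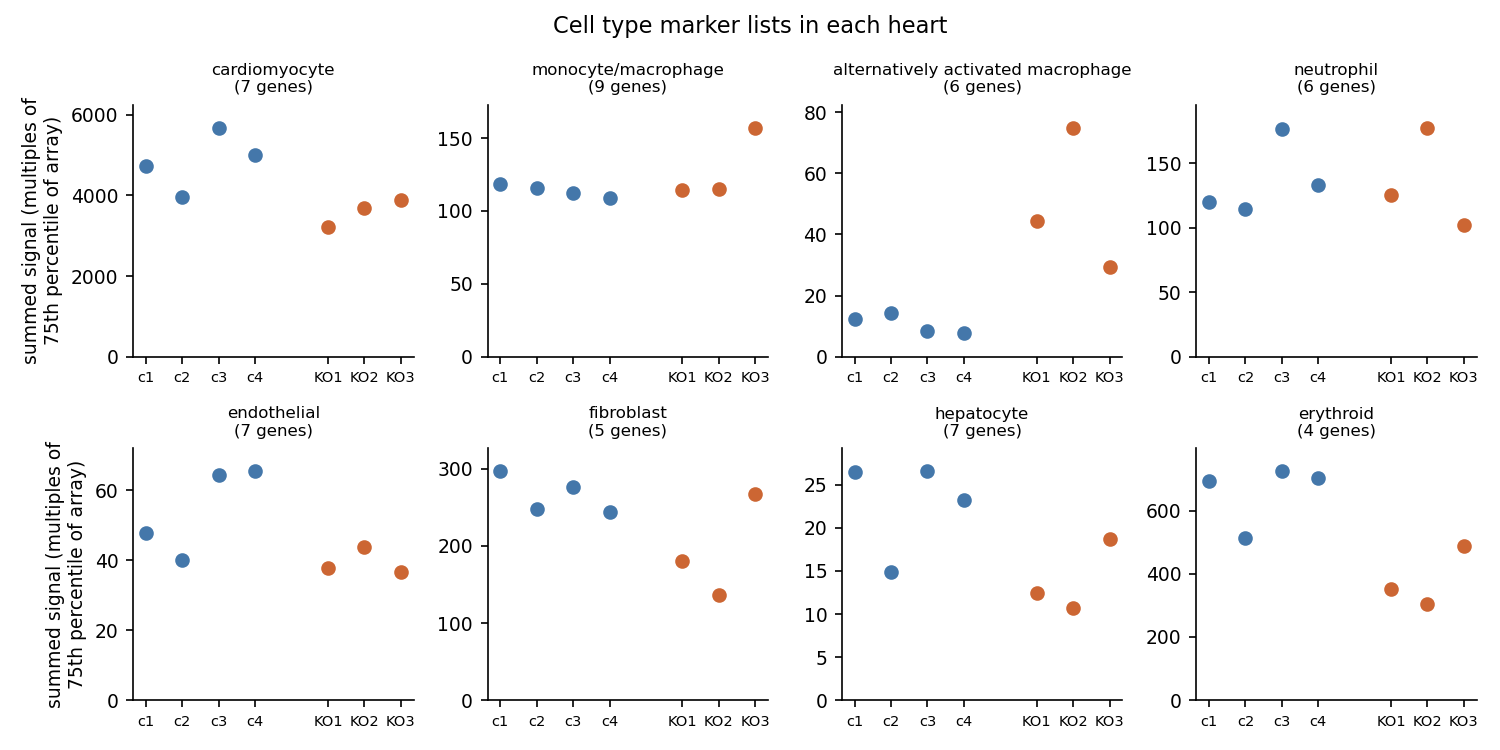
Summed signal of each cell type marker list (y axis, multiples of the array's 75th percentile, starting at 0) in controls 1 to 4 (blue) and KO 1 to 3 (orange), with the number of genes summed. The alternatively activated macrophage list separates the groups, from at most 14.2 in controls to at least 29.4 in KO hearts, with Chil3 as the largest part in KO 1 and KO 2. By mean log2 level, not plotted, every list except the fibroblast list separates the groups. In the cardiomyocyte list (3 of 7 genes fell) and the erythroid list (514 to 724 in controls, 306 to 488 in KO hearts; 3 of 4 genes fell) every KO heart lies below every control.

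Srm, which encodes spermidine synthase, was the other gene of the list with well separated groups. Its brighter probe read 1.44, 2.15, 1.67 and 1.22 in controls 1 to 4 and 3.75, 3.55 and 2.80 in KO hearts 1 to 3. Every KO heart lay above every control, and KO 3 was nearest to them. The means were 1.62 ± 0.40 (SD, n = 4) and 3.36 ± 0.50 (SD, n = 3), a difference of 1.74 ± 0.29 (SE), or 3.35-fold. A second Srm probe, also without overlap, differed by 1.55. Within slide rows the brighter probe differed by 1.95 in row 1 and 1.73 in row 2, so the size was alike in both rows.

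Odc1, the ornithine decarboxylase that makes putrescine, overlapped between the groups. Its brightest probe read 4.05, 4.37, 3.73 and 3.60 in controls and 4.88, 4.54 and 4.17 in KO hearts. Control 2 lay above KO 3 and the other 3 controls lay below all KO hearts. The difference was 0.59 ± 0.24 (SE), or 1.50-fold, and the other Odc1 probes gave 0.50 and 0.59. Within rows it was 0.67 and 0.69.

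Sms, the spermine synthase that acts after Srm, stayed within a narrow band. Its brightest probe read 3.27, 3.00, 3.30 and 3.02 in controls and 3.11, 2.96 and 3.10 in KO hearts, a difference of -0.09 ± 0.14 (SE). The other probes gave -0.06 and 0.12, so the 3 probes did not share a sign. All 3 KO hearts lay within or just below the range of the controls.

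Sat1, the acetyltransferase that starts polyamine breakdown, had nearly the same level in all KO hearts. It read 1.89, 1.50, 1.11 and 0.98 in controls and 2.01, 2.03 and 2.00 in KO hearts. The KO range was 0.023 and the control range 0.91, and control 1 was the control nearest to the KO hearts. The difference was 0.65 ± 0.22 (SE), or 1.56-fold, from a single probe. It was 0.32 within row 1 and 0.97 within row 2, since controls 3 and 4 were the lower ones.

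Amd1, whose decarboxylase supplies the aminopropyl groups, has no value of its own. Amd2, a close copy for which Amd1 is also a listed synonym, had 3 probes, which differed by -0.17, 0.15 and -0.10 with overlapping groups; probes may not tell transcripts of such copies apart.

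Ass1, the argininosuccinate synthase that turns citrulline back toward arginine, was higher in most KO hearts. Its brighter probe read 1.57, 2.39, 0.87 and 0.49 in controls and 2.63, 2.12 and 2.70 in KO hearts. Control 2 lay above KO 2, and the other 3 controls lay below all KO hearts. The difference was 1.15 ± 0.43 (SE), or 2.23-fold, with means of 1.33 ± 0.84 (SD, n = 4) and 2.48 ± 0.32 (SD, n = 3), and the other probe gave 1.08. Within rows it was 0.65 in row 1 and 1.73 in row 2, and the row 1 controls exceeded the row 2 controls by 1.30.

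Nos3, the endothelial nitric oxide synthase, split the KO hearts. Its brighter probe read 3.62, 3.37, 3.78 and 3.81 in controls and 4.10, 4.19 and 3.38 in KO hearts. KO 1 and KO 2 lay above all controls and KO 3 lay near the lowest. The difference was 0.25 ± 0.22 (SE). The second probe, printed at 10 spots whose signals varied by 2.48% to 5.51% (coefficient of variation) within an array, read 2.14 and 2.15 in KO 1 and KO 2 and 1.37 in KO 3, a split also seen in the brighter probe. Within rows the brighter probe differed by 0.61 and -0.01. Of 7 endothelial markers 1 fell (Kdr, by 1.19) and 0 rose. That is 14.3%, where 24.6% of features well above background on at least 3 hearts of both groups passed. Their summed signals were 40.0 to 65.4 in controls and 36.5 to 43.8 in KO hearts. Their mean log2 levels were 1.92 to 2.66 and 1.74 to 1.87, without overlap. The part of these markers in the Nos3 values was not tested.

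Nos2, the inducible nitric oxide synthase of activated macrophages, was measured well above background in every heart. It read 0.95, 0.80, 0.94 and 1.89 in controls and 0.98, 0.67 and 0.86 in KO hearts. Control 4 was the highest heart, and the other 6 lay between 0.67 and 0.98. The difference was -0.31 ± 0.27 (SE), or -0.06 without control 4. It was 0.11 within row 1 and -0.65 within row 2, where control 4 lay.

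Across the 8 measured genes 6 differences were above 0 and 2 below, with a median of 0.62 against -0.06 over all features. The comparison chose the genes, so nothing is read from these signs or this median. The fit put 2 of the 8, Arg1 and Srm, past an adjusted p of 0.05, both higher, where 25.2% of all features passed, 10.2% higher and 15% lower; since the comparison chose the genes, nothing is read from this count. Groups without overlap were found for 3 of the 8, all higher, against 39% of features with groups apart in either direction, 17.6% higher and 21.4% lower, and nothing is read from this count either. The hearts were not ordered alike for all genes. KO 1 was the highest KO heart for 5 genes and KO 3 the lowest for 5, while Ass1 was highest in KO 3. Control 2 was the highest control for 4 genes (Arg1, Odc1, Srm and Ass1) and the lowest for 3 (Sms, Nos2 and Nos3).

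**Figure D3:**
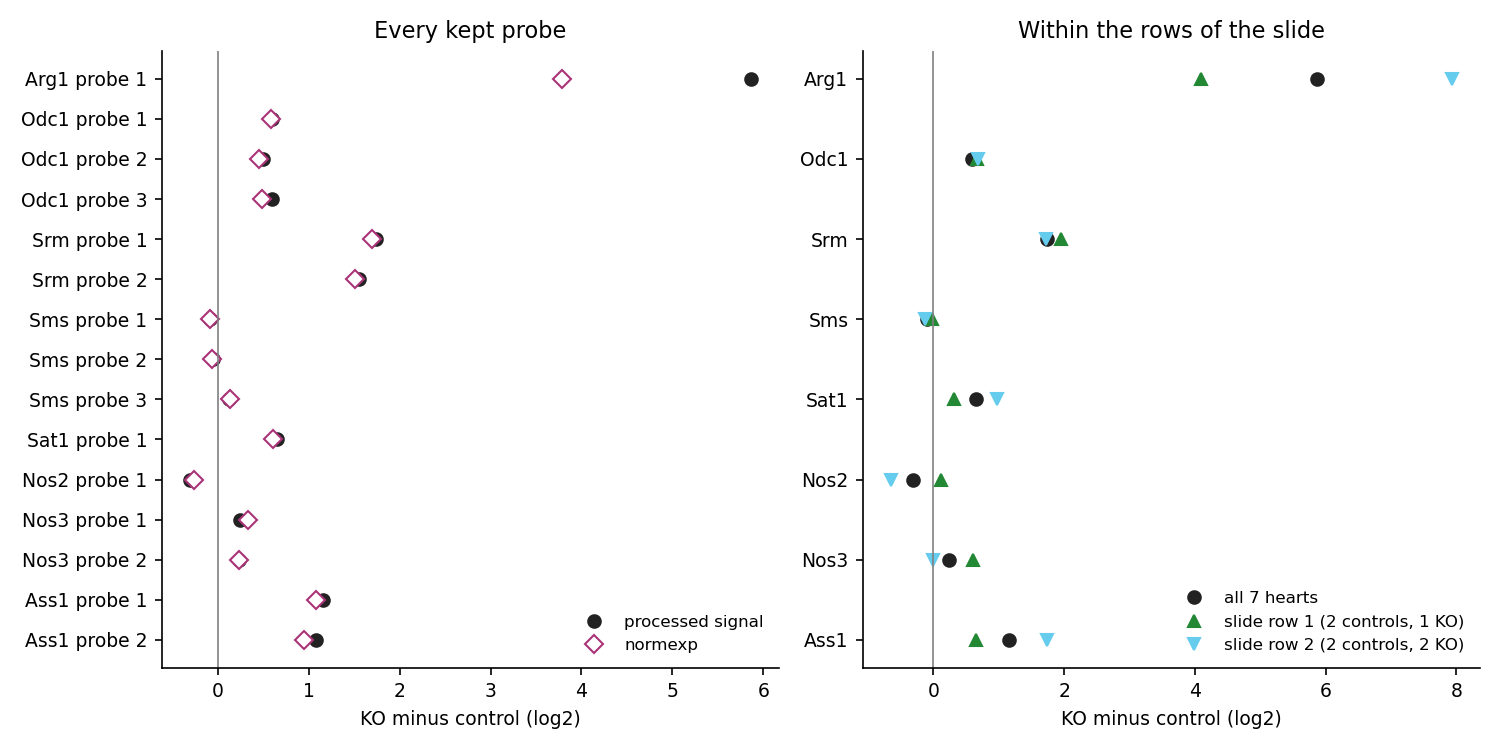
Left, KO minus control difference (log2) of each of the 15 kept probes from processed signals (filled circles) and with normexp background correction (open diamonds); probes of 1 gene lie close together, and only Arg1 moves far, from 5.86 to 3.78. Right, the difference over all 7 hearts and within each row of the slide for the brightest probe (the row 2 value of Arg1 is set against controls that were not well above background); Arg1, Odc1, Srm, Sat1 and Ass1 lie above 0 in both rows, and Nos2 and Nos3 change sign between rows.

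Promoter sequence was available for 5 of the 10 genes (RefSeq, GRCm38.p6). Windows are shown for Ass1, Odc1 and Sat1, which had differences above 0, and for Sms, which had almost none. Each runs 5′ to 3′ on the gene's strand and ends before the first annotated start of the gene. Capitals mark CACGTG, the E-box bound by Myc and Max, and GGGCGG, the GC box bound by Sp1, either way round (CCGCCC).
Ass1, chr2:31470020-31470269, plus strand: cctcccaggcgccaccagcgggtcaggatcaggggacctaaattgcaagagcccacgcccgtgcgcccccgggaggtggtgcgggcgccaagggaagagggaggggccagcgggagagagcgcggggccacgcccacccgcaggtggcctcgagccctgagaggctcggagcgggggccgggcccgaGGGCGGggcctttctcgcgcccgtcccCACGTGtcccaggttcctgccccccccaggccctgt
Odc1, chr12:17544623-17544807, plus strand: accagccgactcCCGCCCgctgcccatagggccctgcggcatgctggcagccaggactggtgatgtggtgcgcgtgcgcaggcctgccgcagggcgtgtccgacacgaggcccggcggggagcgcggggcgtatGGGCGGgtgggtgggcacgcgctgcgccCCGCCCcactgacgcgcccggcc
Sat1, chrX:155216450-155216699, minus strand: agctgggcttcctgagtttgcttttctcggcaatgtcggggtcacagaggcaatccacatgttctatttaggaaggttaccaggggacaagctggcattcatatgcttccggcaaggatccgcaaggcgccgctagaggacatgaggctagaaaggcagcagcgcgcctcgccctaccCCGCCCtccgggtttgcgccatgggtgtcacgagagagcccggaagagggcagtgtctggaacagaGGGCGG
Sms, chrX:157492288-157492537, minus strand: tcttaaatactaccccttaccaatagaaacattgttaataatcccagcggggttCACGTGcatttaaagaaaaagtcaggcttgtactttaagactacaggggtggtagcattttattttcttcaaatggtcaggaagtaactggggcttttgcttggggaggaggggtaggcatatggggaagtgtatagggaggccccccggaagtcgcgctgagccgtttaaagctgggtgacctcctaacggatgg
CACGTG occurred in the 250 bases before the start of Ass1, 36 bases before it, and of Sms, 196 bases before it, and in neither Odc1 nor Sat1. In all 32851 windows of this length in the table, 6.02% held it on either strand. Bases further upstream or after the start were not searched for either motif. GGGCGG occurred 4 times before Odc1 (the last, 15 bases before the start of the window's transcript, lies outside the printed stretch), 2 times before Sat1, 1 time before Ass1 and not in the Sms window shown, and 32.7% of windows held it. A window before a later start of Sms held it 4 times and CACGTG not at all. Ass1 and Sms, each with the E-box in the window shown, had differences of 1.15 and -0.09. The part of either motif in any difference was not tested. All hits are matches of letters, not sites shown to be bound.

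The rest of the pathway was followed with 70 other genes, 59 of them measured. Their lists were chosen with earlier results of these data known. So nothing is read from the shares called in them, and the adjusted p-values are descriptive. In the limma fit, adjusted over all features, 12 rose and 9 fell, 21 of 59, where 25.2% of all features passed, and the median difference was 0.04. This count depended on single hearts: it was 0 without KO 1, 1 without KO 2, 7 without control 4 and 11 without control 1 or without control 3 (22 of the genes had an unadjusted p under 0.05 without KO 1). Of the 56 genes well above background on at least 3 hearts of both groups, 10 rose and 9 fell, or 33.9%, where 24.6% of such features passed. Each of the 21 had the same sign within both rows of the slide.

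The group named for arginine uptake holds transport genes, and transcript levels do not give the direction of transport. In it, 4 genes were well above background on at least 3 hearts of both groups, and of these 3 rose and 0 fell. That is 75%, where 24.6% of such features passed, 10.1% higher. Slc3a2, the heavy chain that carries several amino acid transporters to the membrane, read 3.67, 3.68, 3.63 and 3.30 in controls and 4.68, 4.68 and 4.14 in KO hearts and rose by 0.93 ± 0.18 (SE, limma adjusted p = 0.0161). Slc7a1, the main cationic amino acid carrier of most cells, read 3.49 to 3.57 in controls and 4.20, 4.36 and 3.69 in KO hearts and rose by 0.57 ± 0.17 (adjusted p = 0.0489). Its groups did not overlap, though KO 3 lay close to the controls. Slc7a6, which pairs with Slc3a2, rose by 0.88 ± 0.27 (adjusted p = 0.0464) with overlapping groups. Slc7a2, the cationic carrier that macrophages induce, is counted among the 12 but passed the filter only through the KO hearts: it was well above background on 0 control and 3 KO arrays, and at least 1.03-fold higher there. With normexp its difference was 0.05 (adjusted p = 0.776), and with trended, robust variance its adjusted p was 0.0858. Slc7a7 stood at 0.69 and did not pass. With no filter on dim probes Slc3a2, Slc7a6 and Slc7a1 did not pass either (limma adjusted p = 0.0510, 0.119 and 0.136).

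Genes around citrulline, creatine and agmatine did not pass. Asl, the lyase that follows Ass1, was the only measured gene of the urea cycle group of 6, at 0.31 ± 0.14 (SE, limma adjusted p = 0.118) with every KO heart above every control. The creatine genes Gatm, Gamt and Slc6a8 stood at 0.80, 0.52 and -0.07 and the agmatinase gene Agmat at -0.33. In both groups 0 passed in limma, and 0 had an unadjusted p under 0.05.

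Among genes of nitric oxide synthesis, its cofactor and its receptor, those that passed were lower. Of 12 measured genes, all well above background on at least 3 hearts of both groups, 4 fell and 0 rose, with a median difference of -0.29. The share called was 33.3%, where 24.6% of such features passed, 14.5% lower. Differences above 0 were found for 5 of the 12, the highest 0.47 for Ddah1, and none of these passed. Pts, the second enzyme of tetrahydrobiopterin synthesis, read 1.20, 0.78, 1.12 and 1.45 in controls and -0.24, -0.10 and 0.31 in KO hearts and fell by 1.15 ± 0.20 (SE, limma adjusted p = 0.0139). Spr, which completes that synthesis, fell by 0.70 ± 0.15 (adjusted p = 0.0198), and Qdpr, which regenerates the cofactor, by 0.54 ± 0.15 (adjusted p = 0.0337). The groups did not overlap for any of these, and with median scaling Qdpr did not pass (adjusted p = 0.0618). Gch1, the first and rate-limiting enzyme of the same route, stood at 0.04. Gucy1a1, a subunit of the guanylate cyclase that senses nitric oxide, read 1.20, 1.02, 1.93 and 1.67 in controls and 0.29, 0.42 and 0.67 in KO hearts and fell by 0.99 ± 0.24 (adjusted p = 0.0238), while its partner Gucy1b1 stood at -0.57 and did not pass. No array had Nos1 well above background. The cardiomyocyte marker list was also lower in KO hearts, 3 of 7 having fallen (Tnni3, Pln and Ryr2) and 0 risen, with summed signals of 3970 to 5680 in controls and 3215 to 3882 in KO hearts; its part in these falls was not tested.

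**Figure D4:**
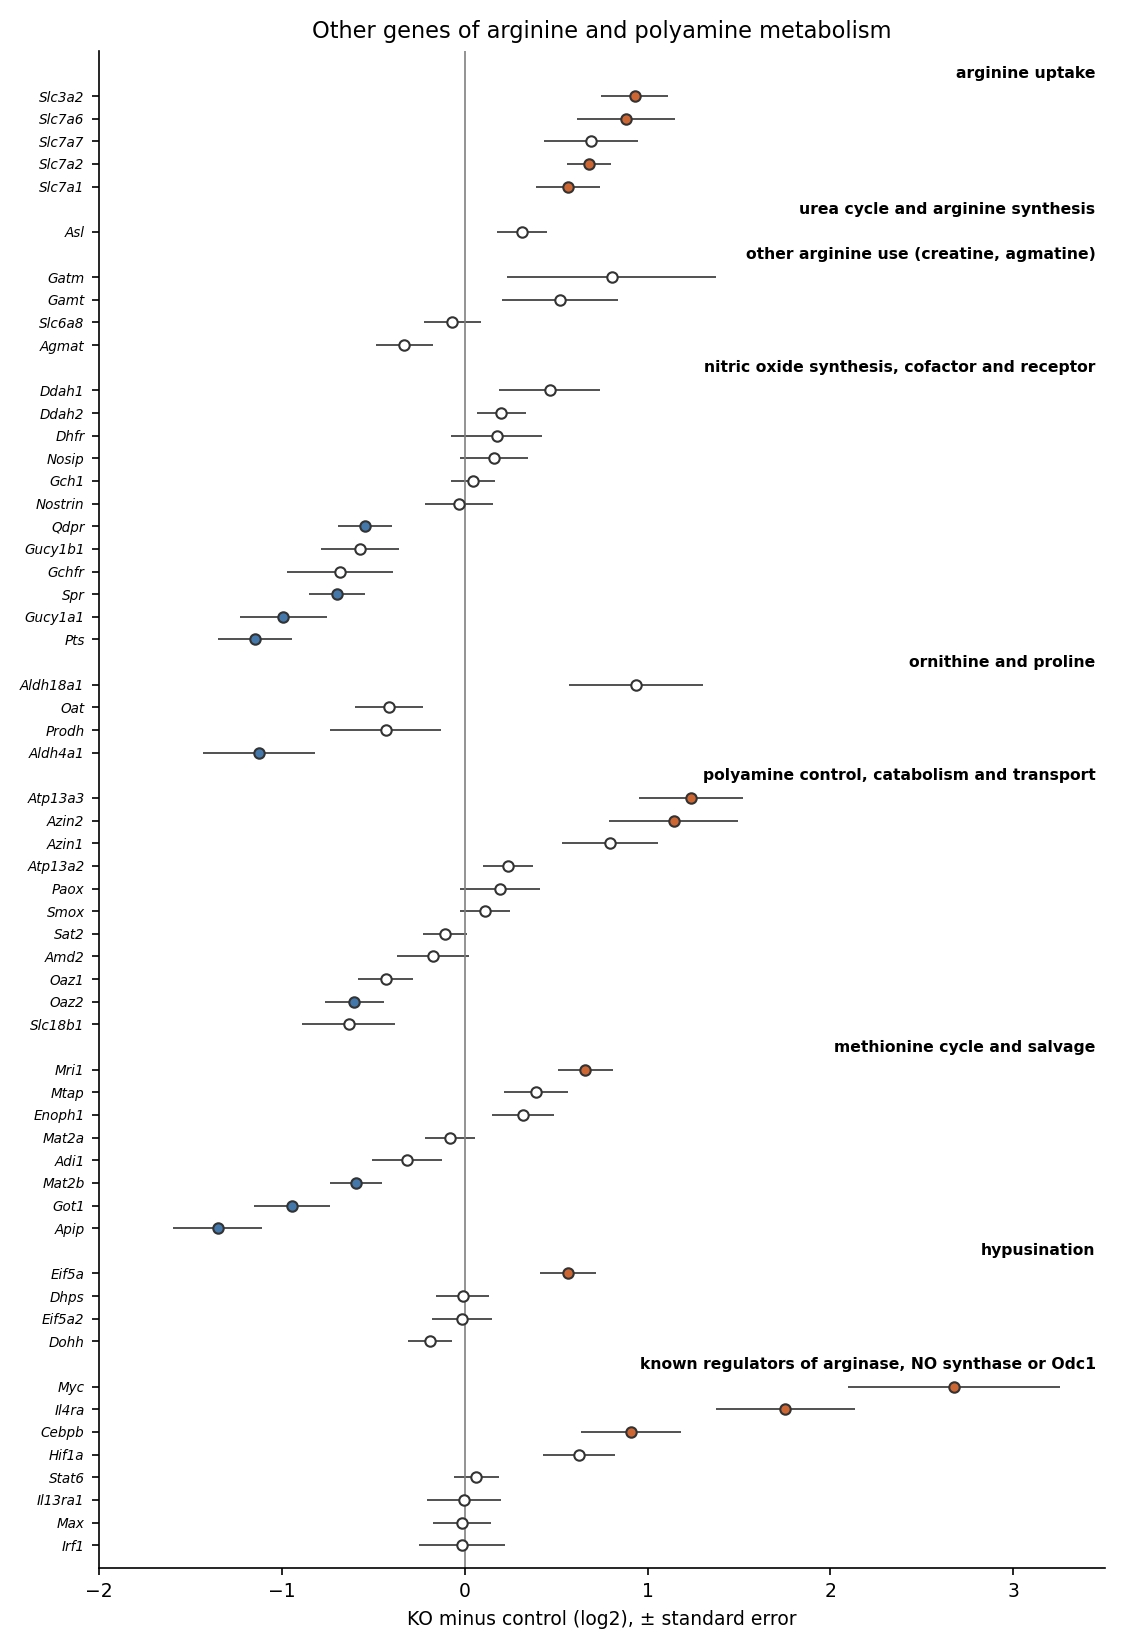
KO minus control difference (log2, x axis) with its standard error for 57 of the 59 other measured genes of the pathway, by group; orange circles rose, blue circles fell and open circles did not pass an adjusted p of 0.05. The transport genes headed arginine uptake lie right of 0 (Slc7a2, like Azin2, was kept through the KO hearts only). The 4 called genes of the nitric oxide group lie left of 0, and Myc, at 2.68, is the largest difference plotted.

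On the route from ornithine to proline and glutamate, Aldh4a1, which oxidises the intermediate of the route to glutamate, read 3.18, 2.81, 3.74 and 3.87 in controls and 2.15, 1.91 and 2.77 in KO hearts. It fell by 1.12 ± 0.31 (SE, limma adjusted p = 0.0344), and every KO heart lay below every control. Oat, the aminotransferase that uses ornithine, stood at -0.41, and Aldh18a1, which makes the intermediate from glutamate, at 0.93; neither passed.

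Among genes that control, break down and move polyamines, the share called was near that of all features. Of the 10 well above background on at least 3 hearts of both groups 1 rose and 1 fell, or 20%, where 24.6% of such features passed. Atp13a3, a transport ATPase linked to polyamine uptake, read -0.90, -0.08, -0.85 and -1.13 in controls and 0.79, 0.64 and 0.05 in KO hearts and rose by 1.23 ± 0.28 (SE, limma adjusted p = 0.0219). Oaz2, an antizyme that sends ornithine decarboxylase to the proteasome, read 7.14, 6.73, 6.82 and 7.14 in controls and 6.21, 6.32 and 6.53 in KO hearts and fell by 0.60 ± 0.16 (adjusted p = 0.0323); with median scaling it did not pass (adjusted p = 0.0745). Azin2, an antizyme inhibitor, is counted among the 12 but passed the filter only through the KO hearts, being well above background on 2 control arrays. Its difference was 1.14 ± 0.35 (SE), and its other probe gave 0.49. With normexp, quantile normalization, median scaling and the authors' value table it did not pass (adjusted p = 0.0780, 0.0581, 0.0545 and 0.0582), and normexp gave 1.28-fold against 2.21-fold. Oaz1 and Azin1 stood at -0.43 and 0.79 and did not pass, nor did the catabolic oxidases Smox and Paox, at 0.11 and 0.19.

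The methionine cycle and salvage genes, which return the sulphur by-product of polyamine synthesis to methionine, moved in both directions as well. Of 8 measured genes, all well above background on at least 3 hearts of both groups, 3 fell and 1 rose. That is 50%, where 24.6% of such features passed, 10.1% higher and 14.5% lower. Apip, a dehydratase of the salvage route, read 4.13, 3.81, 4.40 and 4.56 in controls and 2.60, 2.70 and 3.32 in KO hearts and fell by 1.35 ± 0.24 (SE, limma adjusted p = 0.0143); its second probe differed by -1.40. Got1, an aminotransferase with a wide role in metabolism, fell by 0.94 ± 0.21 (adjusted p = 0.0199) and Mat2b, the regulatory subunit of S-adenosylmethionine synthetase, by 0.59 ± 0.14 (adjusted p = 0.0246). Mri1, the isomerase one step before Apip, rose by 0.66 ± 0.15 (adjusted p = 0.0217). Mtap, which opens the salvage route, stood at 0.39 and did not pass.

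Spermidine is also the donor for hypusine, a modified lysine of the translation factor eIF5A. Eif5a rose by 0.56 ± 0.15 (SE, limma adjusted p = 0.0325), with 4.62, 4.78, 4.40 and 4.51 in controls and 5.29, 5.20 and 4.93 in KO hearts, without overlap. The enzymes of the modification, Dhps and Dohh, stood at -0.01 and -0.19 and did not pass, nor did Eif5a2 at -0.02.

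Of 9 genes known to regulate arginase, nitric oxide synthase or ornithine decarboxylase 3 rose and 0 fell. Of the 8 well above background on at least 3 hearts of both groups 37.5% passed, where 24.6% of such features passed, 10.1% higher. Myc, whose product activates Odc1, read -1.42, -0.41, -0.81 and -2.74 in controls and 1.87, 1.71 and 0.41 in KO hearts and rose by 2.68 ± 0.58 (SE, limma adjusted p = 0.0192). Every KO heart lay above every control. Il4ra, the receptor chain through which interleukin-4 and interleukin-13 induce Arg1, rose by 1.75 ± 0.38 (adjusted p = 0.0195) by its brighter probe and differed by 0.52 at the other, and averaging both gave 2.20-fold against 3.37-fold, past the threshold in both cases. Cebpb, a factor that binds the Arg1 enhancer, rose by 0.91 ± 0.27 (adjusted p = 0.0456), with control 1 above KO 3. Stat6, which acts below Il4ra, stood at 0.06, Il13ra1 at -0.004, Max, the partner of Myc, at -0.01, and Irf1, which acts on Nos2, at -0.02. Hif1a stood at 0.62 ± 0.20 (SE, limma adjusted p = 0.0522), with every KO heart above every control. None of these passed.

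The genes nearest in pattern to the 3 listed genes without overlap were found among 13079 named genes by the root mean square difference between mean-centred log2 profiles over the 7 hearts. Nearest to Arg1 were Mogat2, Sprr2g and Sprr1a, at 0.84, 0.89 and 0.94, themselves genes with differences of 4.80, 5.57 and 5.15. Nearest to Srm were Plet1, Wsb1 and Igf2bp2, at 0.12, 0.14 and 0.14. Among the nearest to Sat1 were Slc4a11 and Acer3, at 0.079 and 0.11. All points of such a profile come from the same 7 arrays, so the measure describes likeness only.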

How the data were processed

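The authors read the arrays with Agilent Feature Extraction 11.0.1.1, per the file headers, and deposited for each of 62976 spots a processed signal, an intensity with the background already taken off, with 3671 of the spots being controls. The authors' deposited value table holds log2 values centred per probe; its percentile or target is not known, and it was used as an alternative. It correlated with median-centred log2 scanner values at 0.926 to 0.993 per heart over 10000 bright features, so higher values mean more signal, and its column medians were 0 in 5 hearts, 0.0079 in control 4 and -0.0021 in the KO heart 2.

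Here the log2 of each processed signal was taken and the 75th percentile of its array subtracted. Control and outlier spots were left out and spots of a probe averaged. Symbols came from RefSeq transcripts (GRCm38.p6 table): 28026 probes matched 1 symbol and 27655 none. The brightest kept probe stood for a gene. The scanner files' design is on mm9, so no coordinates of probes are given. The groups were compared by limma 3.58.1 in R 4.3.3 (lmFit, eBayes) with Benjamini-Hochberg adjustment over 22343 features, checked on simulated data. Where no array of a group had a gene well above background, its fold is a bound: the brighter group's mean against, per array, the higher of its own signal and the lowest signal well above background. The labels name separate hearts; if samples of a group share a source, p-values measure only the spread between these samples.

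The 10 genes and all lists were chosen with earlier results of these data known. Named were all 10 genes and the other pathway genes past the threshold, except results that are not reported here, which the counts still include; genes that did not pass and marker genes were named after their values were seen. Also set were the genes nearest in pattern. Alternatives were 12 settings of normalization, filter, probe choice, variance model and block, and leaving out each of 7 hearts. Counts over genes well above background on at least 3 hearts of both groups come from the same fit and were added after the data were seen.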

Additional observations from a re-analysis of the deposited data

Results flagged for a closer look

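The 8 listed genes measured and the 21 other pathway genes past the threshold were screened for a control heart far from the other 3 controls. In 5 of 29 the gap, as a share of the range, was above Dixon's critical value. Chance flags about 1 in 20 such groups where genes are unselected and independent. These genes were selected on the same arrays and share the same controls, so nothing is read from the count. Nos2 in control 4 stood at 1.89, with the next control at 0.95. Cebpb in control 1 stood at 3.62, above 2.77. Slc3a2 in control 4 stood at 3.30, below 3.63. Got1 in control 2 stood at 7.13, below 7.79, and Qdpr in control 2 at 3.55, below 3.93.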

How the results depend on the processing

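Of 22343 features 5640 passed in the main setting, as did 2 of the 8 listed genes and 21 of the 59 other pathway genes. With no filter on dim probes the counts were 1415, 1 and 3; with array weights 11987, 6 and 36; with an unmoderated test per feature 90, 0 and 1 (8663, 3 and 26 at an unadjusted p under 0.05). With the filter on all 7 arrays 1 listed gene passed, since Arg1 was not tested there, and with slide row as a block 5 did. With replicate number as a block, limma passed 9, 0 and 0 (6508, 2 and 21 unadjusted). Deviations of same-numbered hearts correlated at 0.18, -0.22 and -0.20. Taken from the means of such small groups, these values cannot settle whether the numbers pair the hearts. Leaving out 1 heart gave 69 to 6970 features, 0 to 4 listed genes and 0 to 25 pathway genes; the lowest came without KO 1 (6290, 3 and 22 unadjusted) and the highest without control 2. The cause of these shifts was not tested. The other settings, normexp, quantile and median scaling, the authors' value table, probe means and trended variance, kept each count within 1.5 times. No difference of a called gene changed sign in any setting. Median scaling moved the calls from 40.5% to 46.2% higher.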
